A study of Mus musculus with 6 samples.

Results

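A set of 10 genes of thiol and selenium-dependent redox chemistry in sperm was followed in whole testes of wild-type mice and of mice labelled as conditional knockouts of Msl3. They are Gpx4, Txnrd1, Txnrd2, Txnrd3, Txndc2, Txndc8, Selenov, Prdx4, Prdx6 and Nme8, chosen by name, and all 10 are among the 53700 Ensembl gene identifiers that the count tables list. All 10 were among the 21902 genes that passed the filter on low counts. Testes were taken at postnatal day 45 from 3 mice of genotype MSL3 WT and 3 of genotype MSL3 cKO. Both groups carry the same strain label, Msl3em1Forni/C57BL/6J, and the labels call the knockout allele floxed, that is, flanked by recognition sites for a recombinase. The recombinase line and the deleted exons are not given in the sources used here. The tissue is whole testis, so in these bulk samples fewer cells of a type and less RNA per cell cannot be told apart.

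Maturing sperm cells replace thiols by disulfide bonds in chromatin, in the mitochondrial capsule and in the tail, while their lipid-rich membranes need protection from peroxides. Glutathione peroxidases and peroxiredoxins reduce peroxides, and thioredoxins pass electrons to disulfides and are themselves recharged by thioredoxin reductases at the expense of NADPH. Selenoproteins carry selenocysteine, which is encoded by a TGA codon read through with the help of an RNA element behind the coding region. Gpx4 reduces lipid hydroperoxides and also ends up as a cross-linked structural protein of the sperm midpiece.

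The sites by which these proteins do their chemistry are encoded as follows, in the GENCODE M21 transcripts (GRCm38, the assembly also called mm10), read from 5′ to 3′ in the coding strand. A search for in-frame TGA codons in the main transcript of each gene found 1 each in Gpx4, Txnrd1, Txnrd2, Txnrd3 and Selenov and none in the other 5, which splits the genes into selenoproteins and thiol enzymes. The selenocysteine stretches are shown because the place of the codon sets Gpx4 and Selenov apart from the reductases. Capitals mark the selenocysteine TGA and, in the reductases and Selenov, the partner cysteine codon.
Gpx4: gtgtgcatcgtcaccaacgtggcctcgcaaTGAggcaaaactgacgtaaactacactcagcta
Selenov: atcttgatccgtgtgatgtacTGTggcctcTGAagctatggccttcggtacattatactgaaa
Txnrd1: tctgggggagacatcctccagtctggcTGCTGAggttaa
Txnrd2: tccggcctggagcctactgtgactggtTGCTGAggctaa
Txnrd3: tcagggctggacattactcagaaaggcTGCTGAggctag
In Gpx4 the TGA is codon 73 of 197 and in Selenov codon 255 of 328. In the 3 reductases it directly follows a cysteine codon and is the last codon but 1, at 498 of 499 in Txnrd1, 526 of 527 in Txnrd2 and 614 of 615 in Txnrd3.

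The thiol enzymes use cysteine pairs or single cysteines in place of selenocysteine. For the sperm thioredoxins Txndc2, Txndc8 and Nme8, capitals mark the 2 codons of the Cys-X-X-Cys pair. For the peroxiredoxins they mark the proline, threonine and cysteine codons of the Pro-X-X-X-Thr-X-X-Cys motif, whose cysteine attacks the peroxide.
Txndc2: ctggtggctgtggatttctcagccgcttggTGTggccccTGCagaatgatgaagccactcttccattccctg
Txndc8: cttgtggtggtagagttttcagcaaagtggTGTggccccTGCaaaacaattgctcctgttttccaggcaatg
Nme8: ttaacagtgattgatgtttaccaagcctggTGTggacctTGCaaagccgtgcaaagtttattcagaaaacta
Prdx4: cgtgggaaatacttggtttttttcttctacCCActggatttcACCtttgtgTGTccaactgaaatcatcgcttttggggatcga
Prdx6: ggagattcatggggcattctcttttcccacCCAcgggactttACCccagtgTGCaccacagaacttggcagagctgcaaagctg
The pair starts at codon 477 of 550 in Txndc2, at codon 58 of 153 in Txndc8 and at codon 39 of 586 in Nme8. The peroxidatic cysteine is codon 127 of 274 in Prdx4 and codon 47 of 224 in Prdx6. A further Cys-X-X-Cys spacing at codon 305 of Txnrd3 is not shown.

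The libraries held 56991431 to 73766444 reads assigned to genes, and 14.8% to 16.7% of the reads of a library were not assigned to 1 gene. Reads outside genes made up 4.98% to 6.94% of a library, and reads with several places in the genome 6.10% to 6.75%. Msl3 itself had 942, 1226 and 990 reads in the WT libraries and 1170, 829 and 923 in the cKO libraries, a log2 fold change of -0.12 (SE 0.088; edgeR adjusted p 0.551). Since the targeted gene was not detectably lower, groups are named by their labels, and a direction always compares the libraries that carry the cKO label with those that carry the WT label. The labels call the replicates biological and give each group 3 mice. Across all genes, 4 of 21902 passed an edgeR adjusted p of 0.05.

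The redox genes covered a wide range of levels. Compared per exon length as TPM (a share of all transcripts, scaled to the same total in each library), the order in WT testes was Gpx4, Txndc2, Txnrd3, Txndc8, Selenov, Prdx4, Nme8, Prdx6, Txnrd1 and Txnrd2. Gpx4 stood at 1502 ± 42.7 TPM (SD, n = 3), rank 48 among the tested genes. Txndc2 followed at 761 ± 45.9 TPM, Txnrd3 at 528 ± 33.6 TPM and Txndc8 at 498 ± 63.8 TPM (SD, n = 3 each). Selenov had 329 ± 9.11 TPM, Prdx4 250 ± 26.9 TPM and Nme8 226 ± 20.9 TPM (SD, n = 3 each). Prdx6 had 82.2 ± 1.39 TPM and Txnrd1 18.4 ± 0.772 TPM, and Txnrd2 was lowest at 3.06 ± 0.251 TPM (SD, n = 3 each). The ranges of the WT libraries overlapped between the neighbours Txnrd3 and Txndc8 and between Prdx4 and Nme8, so the order within these pairs is not resolved. No other neighbours overlapped. The lengths behind these values join all annotated exons of a gene. With the length of the main transcript instead, Prdx4 moved from place 6 to 4 and Txnrd3 from place 3 to 5, and Gpx4, Txndc2, Nme8, Prdx6, Txnrd1 and Txnrd2 kept their places.

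**Figure D1:**
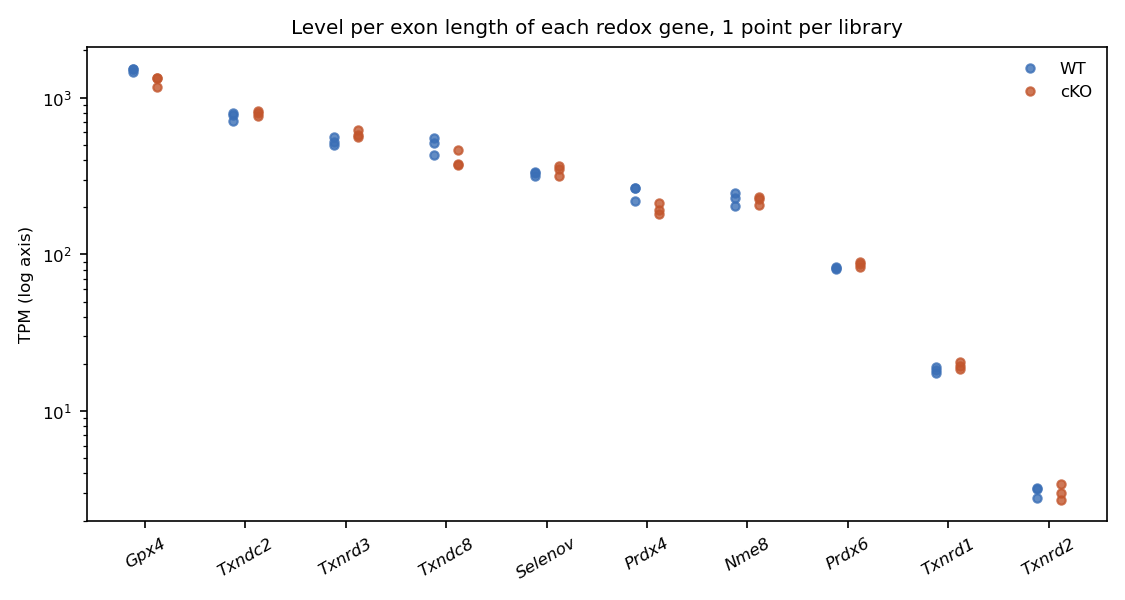
Level of each redox gene per exon length in TPM on a log axis, with 1 point per library, WT in blue and cKO in orange, ordered by the WT mean. Levels run from 1502 TPM for Gpx4 to 3.06 TPM for Txnrd2 in WT, and the cKO points lie below the WT points for Gpx4 and Prdx4.

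None of the 10 genes passed edgeR's adjusted p of 0.05, as did 0.0183% of all genes tested, and DESeq2 called 1, Prdx4. With edgeR's unadjusted p under 0.05 there were 3 genes, Prdx4, Gpx4 and Txndc8, all lower in cKO, where 13.9% of all genes passed that threshold, with 6.54% lower and 7.33% higher. The other 7 lay between -0.07 and 0.11 on the log2 scale. The groups did not overlap for 2 of the 10, Prdx4 and Gpx4, where 18.9% of all genes did not overlap, with 8.85% having cKO below WT and 10% above. The median log2 fold change of the 10 was -0.01, beside 0.0031 for all genes tested, with 5 genes lower and 5 higher. Levels below are CPM (the reads of a gene set against all assigned reads of its library), scaled by the trimmed mean of M values.

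Gpx4 (ENSMUSG00000075706, chr10:80047166-80056439 in GRCm38, as are all positions here) was the most abundant of the 10 and had 894, 939 and 941 CPM in WT replicates 1, 2 and 3 and 821, 682 and 799.6 CPM in cKO replicates 1, 2 and 3. All 3 cKO libraries lay below all 3 WT libraries, and cKO replicate 2 was the lowest. Gpx4 thus averaged 925 ± 26.7 CPM in WT and 768 ± 74.6 CPM in cKO (SD, n = 3 each). The log2 fold change was -0.27 (SE 0.077), which puts Gpx4 in cKO at 83.0% of WT (95% limits 73.9% and 93.3%; edgeR adjusted p 0.288). Without cKO replicate 2 the value was -0.19 and without cKO replicate 1 it was -0.32, with edgeR adjusted p of 0.584 and 0.0505.

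The Gpx4 count has limits of its own. The gene encodes mitochondrial, cytosolic and nuclear forms of the enzyme from alternative first exons and start sites, and a count per gene adds them together. Of the 31-base words in its transcripts, 38.9% also occur in other genes, nearly all of them in the pseudogene Gpx4-ps2 on the same chromosome. The tables list reads with several places in the genome apart from the genes, and how many of those came from Gpx4 was not measured. Gpx4-ps2 was counted at 22.8 ± 0.543 CPM in WT and 18.9 ± 2.25 CPM in cKO (SD, n = 3 each). Its log2 fold change, -0.27, was the same as that of Gpx4 to 2 decimals, and reads of the 2 loci cannot be fully separated.

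The groups overlapped for all 3 thioredoxin reductases. Txnrd3 (chr6:89643988-89675529), which joins a glutaredoxin domain to the reductase and is known as the form enriched in the testis, had 571, 501 and 533 CPM in WT and 588, 596 and 551 CPM in cKO. The groups overlapped, and the log2 fold change was 0.11 (SE 0.070, 95% limits -0.04 and 0.27) with an edgeR adjusted p of 0.493. Txnrd1 (chr10:82833951-82897712), the cytosolic form of most tissues, had 48.3, 44.2 and 46.8 CPM in WT and 49.4, 49.0 and 45.3 CPM in cKO. The log2 fold change of Txnrd1 was 0.04 (95% limits -0.11 and 0.20). The mitochondrial form Txnrd2 (chr16:18426384-18479073) had 298, 281 and 312 reads in WT and 391, 226 and 267 in cKO, the lowest counts of the 10 genes. It stood at 5.07, 4.33 and 5.02 CPM in WT and 5.36, 4.04 and 4.57 CPM in cKO, with a log2 fold change of -0.04 and the widest 95% limits of the group, -0.32 and 0.24.

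Set against Txnrd1 within each library, Txnrd3 had 29.5, 28.3 and 28.5 times the TPM in WT and 29.8, 30.4 and 30.4 times in cKO. The cKO ratios all lay above the WT ratios, by little: 30.2 ± 0.360 against 28.8 ± 0.644 (SD, n = 3 each; exact two-sided permutation p = 0.1, the smallest that 3 against 3 can give). The ratio of Txnrd3 to Txnrd2 ranged from 165 to 180 in WT and from 170 to 229 in cKO, with overlap (exact permutation p = 0.3). These were the only 2 ratios tested, with Benjamini-Hochberg adjusted p of 0.2 and 0.3. With the length of the main transcripts in place of all exons, the ratio of Txnrd3 to Txnrd1 was 9.33 ± 0.209 in WT and 9.79 ± 0.117 in cKO (SD, n = 3 each), so the size of the ratio depends on the length used.

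Selenov (chr7:28284652-28291186), a selenoprotein of the testis with a thioredoxin-like fold, had 174, 164 and 173 CPM in WT and 190, 171 and 160 CPM in cKO. The WT libraries lay within the range of the cKO libraries. For Selenov the log2 fold change was 0.03 (SE 0.075), with 95% limits of -0.14 and 0.19 and an edgeR adjusted p of 0.900.

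Gpx4 alone held the largest share of the selenoprotein messenger RNA. Taken over the 21 selenoprotein genes with enough reads, its share of their summed TPM was 37.4%, 38.3% and 38.6% in WT and 35.6%, 32.5% and 35.7% in cKO. By the WT mean Txnrd3 came next, with 14.5%, 12.4% and 13.3% in WT and 15.5%, 17.2% and 15.0% in cKO. Neither share overlapped between the groups, the Gpx4 share being lower in cKO and the Txnrd3 share higher. Because shares add up to the whole, a lower Gpx4 level raises the others, and these values are no test apart from that of Gpx4 itself. Selenow, a small selenoprotein, held 12.5% ± 0.219 in WT and 12.5% ± 0.467 in cKO (SD, n = 3 each). The WT ranges of Txnrd3 and Selenow overlapped, so their order in WT is not resolved. Selenov held 8.34% ± 0.358 in WT and 9.31% ± 0.721 in cKO (SD, n = 3 each). Txnrd1 held 0.466% and Txnrd2 0.0776% in WT. The shares rest on joined exon lengths and depend on that choice. By the length of the main transcript the WT level was 2701 in place of 1502 TPM for Gpx4 and 56.6 in place of 18.4 TPM for Txnrd1. That of Txnrd3 stayed at 528 TPM. Shares by that length were not computed.

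**Figure D2:**
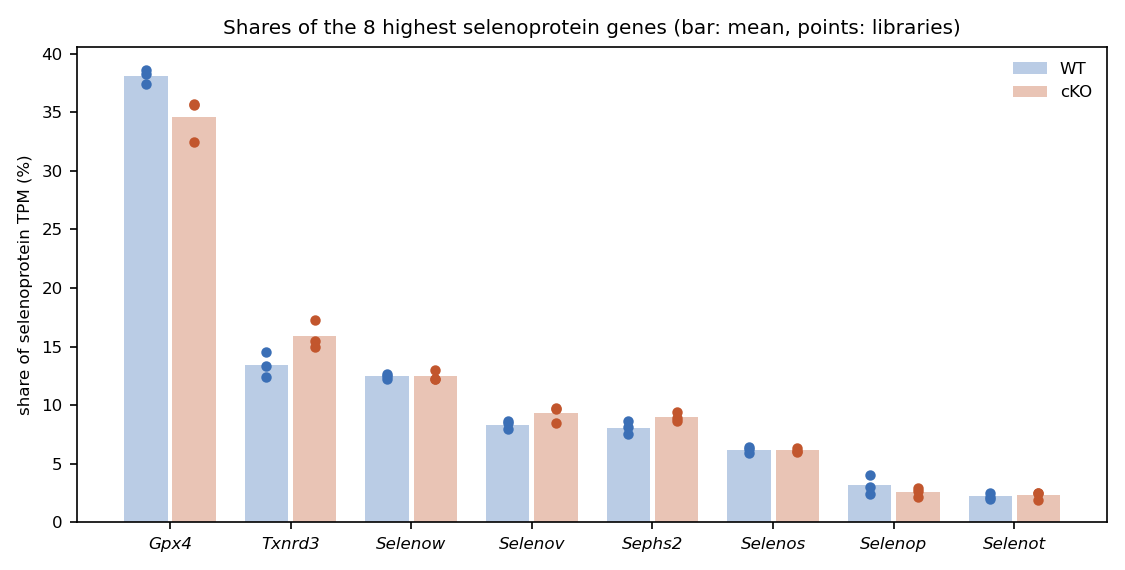
Shares of the summed TPM of 21 selenoprotein genes held by the 8 highest, in percent, with bars for group means and 1 point per library. The Gpx4 points lie between 37.4% and 38.6% in WT and between 32.5% and 35.7% in cKO, and the Txnrd3 points of cKO all lie above those of WT.

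Of the 3 sperm thioredoxins, Txndc8 had the value farthest from 0. Txndc2 (chr17:65637507-65642168), a thioredoxin of the fibrous sheath of the sperm tail, had 547, 501 and 571 CPM in WT and 567, 547 and 524 CPM in cKO. Its groups overlapped, and the log2 fold change was 0.02 (SE 0.070, 95% limits -0.14 and 0.17). Txndc8 (chr4:57984027-58009124), a small thioredoxin of the spermatid Golgi and forming acrosome, had 104, 134 and 126 CPM in WT and 91.0, 87.1 and 109.8 CPM in cKO. Only WT replicate 1 and cKO replicate 3 overlapped. The log2 fold change was -0.34 (SE 0.11), which puts Txndc8 in cKO at 78.9% of WT (95% limits 67.3% and 92.6%; edgeR adjusted p 0.288). Nme8 (chr13:19645078-19697794), which joins a thioredoxin domain to nucleoside diphosphate kinase domains in the sperm tail, had 188, 226 and 213 CPM in WT and 191, 204 and 202 CPM in cKO. The cKO libraries lay within the range of the WT libraries, with a log2 fold change of -0.07 (SE 0.076).

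Of the peroxiredoxins, Prdx4 was lower in every cKO library than in any WT library, and Prdx6 was not. Prdx4 (ENSMUSG00000025289, chrX:155323918-155340754), the peroxiredoxin of the secretory pathway, had 164, 199.6 and 199.6 CPM in WT and 144, 129 and 155 CPM in cKO. No library of one group reached into the other, though WT replicate 1 stood closer to cKO replicate 3 than to the other WT libraries. Its log2 fold change of -0.40 (SE 0.092) was the farthest from 0 of the 10, which puts Prdx4 in cKO at 75.8% of WT (95% limits 65.9% and 87.2%). The edgeR adjusted p was 0.276. Prdx6 (ENSMUSG00000026701, chr1:161240112-161251219), a peroxiredoxin that also acts on phospholipids, had 143, 141 and 139 CPM in WT and 153, 135 and 144 CPM in cKO, with a log2 fold change of 0.03 (SE 0.068). The cKO libraries spread on both sides of the WT libraries.

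Prdx6 has a close relative in Prdx6b on chromosome 2, which holds 1.84% of the 31-base words of Prdx6. In these testes Prdx6b was the higher of the pair, at 430 ± 6.78 TPM in WT (SD, n = 3) against the 82.2 TPM of Prdx6. Prdx6b had 450, 439 and 439 CPM in WT and 451, 465 and 442 CPM in cKO, a log2 fold change of 0.03 with overlapping groups. Prdx4 is the only X-linked gene of the 10. The 856 X-linked genes tested had a median log2 fold change of -0.06 and autosomal genes one of 0.0058. The 280 of the X-linked genes that averaged 10 CPM or more, Prdx4 included, had a median of -0.015, and 18 others of them had a log2 fold change as low as that of Prdx4 or lower.

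**Figure D3:**
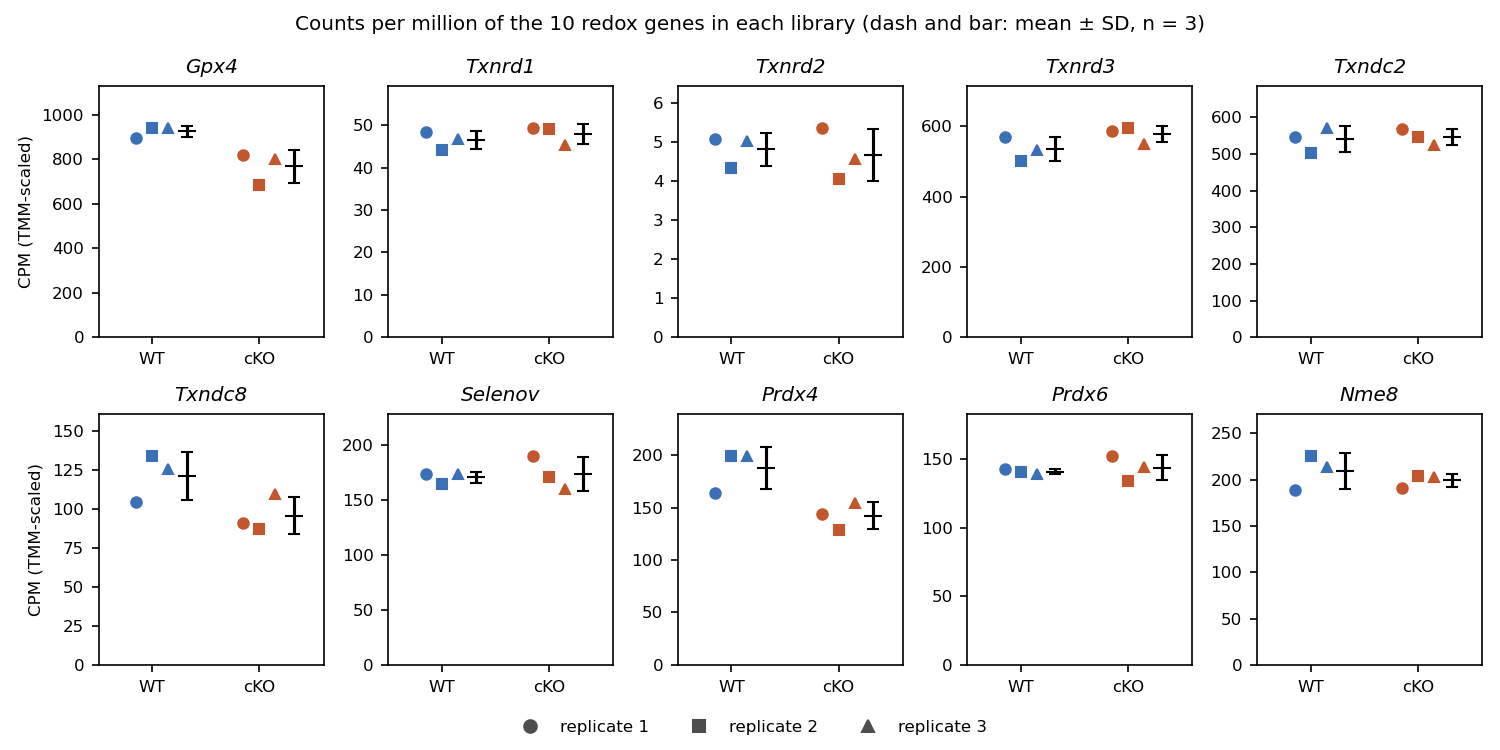
CPM of each redox gene in WT (blue) and cKO (orange) libraries, 1 panel per gene, each axis starting at 0; symbols give the replicate number, and the dash with its bar is the mean ± SD (n = 3). The groups separate for Gpx4 and Prdx4, and for Txndc8 only cKO replicate 3 at 109.8 CPM reaches above WT replicate 1 at 104 CPM.

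Calls of Prdx4 depended on the method. DESeq2 called it (adjusted p 0.0126), where 1.78% of the genes to which it gave an adjusted p were called, and so did edgeR without the filter on low counts (adjusted p 8.0e-05), where 2.07% of genes were called. The edgeR fit without WT replicate 1 gave an adjusted p of 0.0321 for Prdx4 with 0.518% of genes called, and the fit without cKO replicate 1 gave 0.0475 with 2.82% called. Without each of the other 4 libraries the edgeR adjusted p was 0.488 to 0.730. Gpx4 and Txndc8 were called in the fit without the filter alone, with edgeR adjusted p of 0.0208 and 0.0020, and DESeq2 gave 0.0622 and 0.0606. The direction of Prdx4, Gpx4 and Txndc8 was lower in cKO under all 15 alternatives, with an unadjusted p under 0.05 in each.

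**Figure D4:**
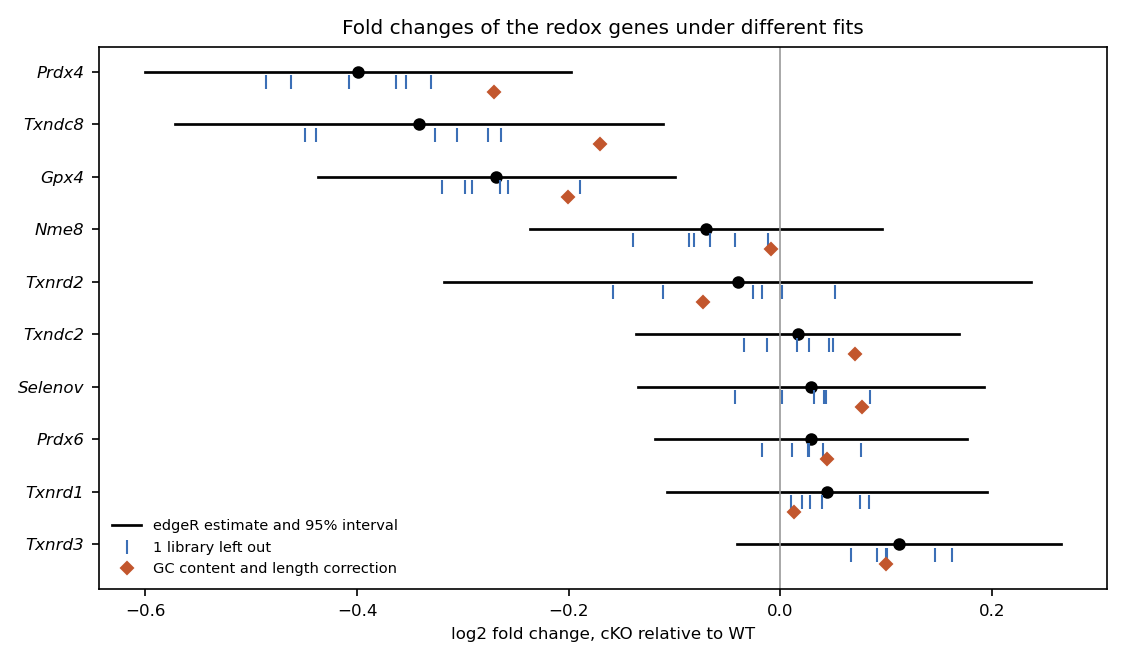
Log2 fold changes of the redox genes, cKO relative to WT, as edgeR estimates with 95% intervals (black), estimates with 1 library left out (blue ticks) and estimates after a correction for GC content and transcript length (orange diamonds). Only the intervals of Prdx4, Txndc8 and Gpx4 lie below 0, and for these 3 genes the corrected estimates, -0.27, -0.17 and -0.20, lie nearer to 0.

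Transcript length moved with the fold change. Txndc8, Gpx4 and Prdx4 have the shortest transcripts of the 10 genes, with longest annotated forms of 620, 995 and 1025 bases, against 1267 to 3622 bases for the other 7. Over all tested genes of known length, those under 1000 bases had a median log2 fold change of -0.15 and those from 3000 bases on one of 0.08, with -0.07 and -0.0057 for the classes of 1000 to 2000 and 2000 to 3000 bases between. An unadjusted edgeR p under 0.05 in the lower direction was found for 16.6% of the genes under 1000 bases and for 1.95% of those from 3000 bases on. The median deviation of the genes under 1000 bases from their own mean was -0.0069, 0.16 and 0.08 in the WT libraries and -0.05, -0.12 and -0.04 in the cKO libraries on the log2 scale, so that WT replicate 2 and cKO replicate 2 stood at the ends.

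The 3 genes were therefore set beside genes of like length that averaged 10 CPM or more. Of 739 such genes for Prdx4, from 820 to 1281 bases long, 13 (1.76%) had a log2 fold change as low or lower, and the median of the 739 was -0.11. For Gpx4 (796 to 1244 bases) it was 77 of 701 genes, with a median of -0.12, and for Txndc8 (496 to 775 bases) 35 of 316 (11.1%), with a median of -0.18. Selenov, with 1267 bases the next in length, stood on the other side of its neighbours, 81.9% of which, 761 of 929, were as low or lower. After a correction of each library for GC content and transcript length, an alternative added after a look at the data, the log2 fold change was -0.27 for Prdx4 (edgeR adjusted p 0.357), -0.20 for Gpx4 (0.386) and -0.17 for Txndc8 (0.508). The part of transcript length in the rest was not tested.

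**Figure D5:**
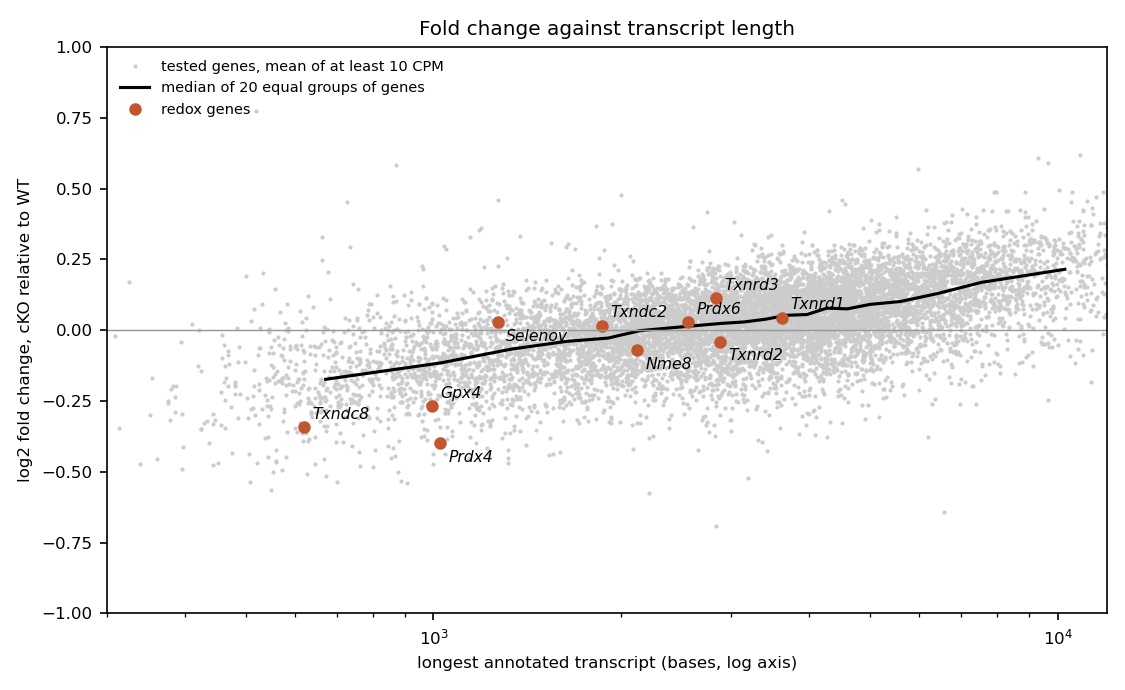
Log2 fold change of cKO relative to WT against the length of the longest annotated transcript (log axis) for tested genes averaging 10 CPM or more (grey), the medians of 20 equal groups of these genes by length (black line) and the 10 redox genes (orange). Points outside the axes are not drawn. The line climbs with length, and Prdx4, at -0.40 and 1025 bases, lies farther under it than Gpx4 or Txndc8.

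Cell type markers gave the setting of these values. Among 10 marker lists of 6 to 8 genes, none held a gene called by edgeR over all genes. At an unadjusted edgeR p under 0.05, 6 of the 69 tested markers were higher and 12 lower, where 7.33% of all genes were higher and 6.54% lower. DESeq2 called 4 of the 55 markers to which it gave an adjusted p, where it called 1.78% of all such genes. They were the spermatid markers Hmgb4, Izumo1 and Tnp1 and the Leydig marker Hsd17b3, named after their values were seen. Round spermatid markers (8 of 8 tested) summed to 1223 to 1385 CPM in WT and 1172 to 1203 CPM in cKO without overlap, with 7 of 8 lower and a median log2 fold change of -0.15. Elongating spermatid markers summed to 17624 to 19448 CPM in WT and 15350 to 18755 CPM in cKO, with overlap and a median of -0.08. The median lengths of these lists are 1417 and 710 bases, against 2676 bases for all genes tested and 620 to 1025 bases for Gpx4, Prdx4 and Txndc8. Endothelial markers summed to 44.0 to 45.4 CPM in WT and 45.6 to 54.6 CPM in cKO without overlap, with a median of 0.21. The median length of the endothelial list is 4324 bases, and all tested genes from 3000 bases on had a median of 0.08. Macrophage markers had the lowest median of the 10 lists, -0.22, with 7 of 8 lower, 3 of them at an unadjusted edgeR p under 0.05. The 1 higher gene, Mrc1, was also at that level, at 0.25 on the log2 scale with all cKO libraries above WT. Summed CPM of the macrophage markers overlapped (110.4 to 137 CPM in WT, 109.3 to 129 CPM in cKO). The sums of spermatogonial, spermatocyte, Sertoli, Leydig, peritubular myoid and epididymal markers also overlapped between the groups, and those of the epididymis came to at most 5.41 CPM from the 1 of 6 genes with enough reads. Sertoli markers had a median of 0.09 at a median length of 1840 bases, with 6 of 8 higher, 2 of them at an unadjusted edgeR p under 0.05. Spermatogonial markers had a median of 0.12, with 6 of 8 higher. The medians of the spermatocyte, Leydig, peritubular myoid and epididymal lists were -0.07, -0.08, -0.08 and -0.10. The part of cell makeup in the lower Gpx4, Prdx4 and Txndc8 values was not tested.

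The rest of the pathway was read from 7 lists with 102 further genes, 98 of which had enough reads. None passed the edgeR threshold over all genes. DESeq2 called 2 of the 85 to which it gave an adjusted p, Txnip and Tnp1, where it called 1.78% of all such genes. At an unadjusted edgeR p under 0.05, 2 were higher and 11 lower, and the median log2 fold change was -0.05. Over all genes tested 7.33% were higher and 6.54% lower at that level. The 11 became 3 without WT replicate 2, 6 without WT replicate 3 and 5 without cKO replicate 2. They became 12 without WT replicate 1, 15 without cKO replicate 1 and 16 without cKO replicate 3. Over all genes, 3039 were at that level in either direction with all libraries. That number was 1625 without WT replicate 2, 1410 without WT replicate 3 and 1883 without cKO replicate 2. It was 4078 without WT replicate 1, 3815 without cKO replicate 1 and 2242 without cKO replicate 3. Among 12 tested glutathione peroxidases and glutathione enzymes 1 was at that level, Gpx1, the cytosolic peroxidase of most tissues, which had 26.8, 30.7 and 26.0 CPM in WT and 22.5, 17.9 and 24.9 CPM in cKO. Gpx1 had a log2 fold change of -0.35 (SE 0.11; edgeR adjusted p 0.288) and a longest transcript of 1072 bases, and without cKO replicate 2 its value was -0.23.

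Of 28 other thioredoxins, glutaredoxins and disulfide isomerases 4 were lower and 0 higher at an unadjusted edgeR p under 0.05. The shares over all genes were 6.54% and 7.33%. Txnip, the inhibitor that binds reduced thioredoxin, had 76.7, 108 and 95.1 CPM in WT and 72.9, 67.8 and 75.7 CPM in cKO, a log2 fold change of -0.37 (SE 0.11) at a length of 2827 bases. The edgeR adjusted p of Txnip was 0.287. DESeq2 called Txnip (adjusted p 0.0427, with 1.78% of genes called). So did edgeR without the filter on low counts (0.00058, with 2.07% called) and without WT replicate 1 (0.0265, with 0.518% called). Without WT replicate 2 the log2 fold change of Txnip was -0.25 (edgeR adjusted p 0.670), and without WT replicate 3 the edgeR adjusted p was 0.730. Glrx3, a glutaredoxin of iron handling, had a log2 fold change of -0.22 and Txn1, the cytosolic thioredoxin, one of -0.22 as well, both without overlap of the groups. Of all genes 18.9% had no overlap. For Glrx3 the groups nearly met, at 210.3 CPM in WT replicate 1 and 210.0 CPM in cKO replicate 3. Its unadjusted edgeR p was 0.0911 without WT replicate 2, 0.0570 without WT replicate 3 and 0.0718 without cKO replicate 1. For Txn1, whose longest transcript has 1051 bases, the value was -0.13 without cKO replicate 2 and -0.099 after the correction for GC content and transcript length. The same correction left Txnip at -0.37 and Glrx3 at -0.23. The remaining gene, Txndc9, had -0.15 and is named after its value was seen.

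In the other lists, genes whose groups overlapped are named after their values were seen. Prdx1 was the single gene at an unadjusted edgeR p under 0.05 among 8 other peroxiredoxins and repair enzymes, at -0.20 on the log2 scale. Of 14 other selenoproteins 11 were lower, 3 of them at an unadjusted edgeR p under 0.05: Selenop, the selenium carrier of plasma, at -0.42, Selenof at -0.23 and Selenok at -0.19. Their groups overlapped, and the median of the 14 was -0.13. Over all 21902 genes tested 10800 were lower, and 6.54% were lower at that level. Without WT replicate 2 the value of Selenop was -0.19 (unadjusted edgeR p 0.149), and its unadjusted p was 0.0958 with DESeq2 and 0.0998 with the robust fit. That of Selenok was -0.12 without WT replicate 2, -0.12 without cKO replicate 2 and -0.11 after the correction for GC content and length. The 9 genes of selenocysteine synthesis, insertion and selenium uptake had a median of 0.04. In that list Lrp8, the receptor through which the testis takes up Selenop, had 76.0, 75.9 and 72.4 CPM in WT and 78.7, 94.0 and 93.0 CPM in cKO. All 3 cKO libraries lay above WT, with a log2 fold change of 0.24 (SE 0.078), an edgeR adjusted p of 0.288 and a longest transcript of 6627 bases. Without cKO replicate 1 the edgeR adjusted p of Lrp8 was 0.0268, with 2.82% of genes called, and after the correction for GC content and length the log2 fold change was 0.12 (edgeR adjusted p 0.525). Pstk, the kinase that acts on the transfer RNA of selenocysteine, was at -0.30 with overlapping groups, and at -0.19 without WT replicate 2. After the correction for GC content and length Pstk was at -0.35.

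Enzymes of superoxide, peroxide and NADPH metabolism (15 tested) had a median of -0.01, and G6pd2, a glucose-6-phosphate dehydrogenase gene of the testis, was the only one at an unadjusted edgeR p under 0.05, at 0.17 on the log2 scale. Of 12 genes listed for structural and chromatin proteins of sperm 6 were lower and 6 higher, with a median of -0.0043. The cysteine content of this list was not examined. Tnp1, a transition protein of spermatid chromatin, had 2125, 2695 and 2683 CPM in WT and 1836, 1685 and 2172 CPM in cKO. Its log2 fold change was -0.40, its groups overlapped through cKO replicate 3, and its longest transcript has 437 bases. DESeq2 called Tnp1 (adjusted p 0.0265), and so did edgeR without the filter on low counts (2.1e-05) and without WT replicate 1 (0.0470), where the adjusted p with all libraries was 0.276. After the correction for GC content and length the value was -0.22 (edgeR adjusted p 0.455).

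The pattern of Gpx4 over the 6 libraries was most like those of Txnl1 (Pearson r 0.98) and Txn1 (0.93) among 79 other pathway genes averaging 10 CPM or more. That of Txnrd3 was most like those of Eefsec (0.94) and Odf2 (0.91). These values describe 6 libraries that differ together in group and in the balance of short and long transcripts.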

How the data were processed

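Total RNA of testes from 6 mice was sequenced as single-end reads of 75 bp, per the labels' protocols. The authors deposited raw counts of reads per gene, 1 table per library. STAR, HTSeq and DESeq2 and the assembly mm10 are named in the submitters' processing notes, without roles; the annotation release is not given in the sources used here. Opposite-strand counts, 96.0% to 96.2% of the 2 strand columns, were used, and the lines of totals were left out. GENCODE M21 gave symbols for 52093 identifiers. Nnt, with 2 identifiers, was left out of its list.

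The comparison was fitted with edgeR 4.0.16 in R 4.3.3 (filterByExpr at a minimum count of 10, scaling by TMM, quasi-likelihood F test, Benjamini-Hochberg adjustment over 21902 genes, threshold 0.05). Standard errors come from the F statistic. TPM used joined exon lengths. The test was also run on simulated counts, which held no trend with transcript length, so that run does not cover such a trend. Alternatives were RLE scaling, library totals, 2 other filters, unstranded counts, a replicate block, a robust fit, each library left out, DESeq2 1.42.0 and, added later, a loess correction for GC content and transcript length (span 0.3). Genes and lists were chosen with earlier results of these data known. Named were the 10 genes, Msl3, genes sharing sequence with them (not all are reported here), up to 3 genes per list with an unadjusted p under 0.05 and no overlap, and the 2 list genes most like Gpx4 and Txnrd3. Counting error is small at these depths except for Txnrd2.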

Additional observations from a re-analysis of the deposited data

How the results depend on the processing

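Over all genes, 4 were called, against 757 without the low-count filter, 209 with DESeq2, 49 with a replicate block, 2 with unstranded counts and 1 to 628 with single libraries left out, the most without cKO replicate 1. Of the 10 redox genes, 0 were called, against 3 without the filter (Prdx4, Gpx4, Txndc8), 1 with DESeq2 and 0 to 1 without a library, each time Prdx4. The cause was not tested. Deviations of libraries with the same number correlated at 0.35, 0.26 and -0.05, and those with different numbers at -0.34 to 0.11. The main fit did not treat replicate numbers as pairs, and these values do not settle whether they are. The replicate block called 0 of the 10 genes, with an edgeR adjusted p of 0.054 for Prdx4. Directions reversed for genes near 0: Txndc2 was -0.011 with library totals alone. Without single libraries Txndc2 ranged from -0.035 to 0.049, Txnrd2 from -0.16 to 0.052, Selenov from -0.043 to 0.084 and Prdx6 from -0.017 to 0.076. The other 6 genes kept their direction under all 15 alternatives. The median of the 10 stayed within the spread between replicates. Depth limits Txnrd2 most, at 226 to 391 reads.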
